A study of Mus musculus with 10 samples.

Results

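The collagen chains were taken as the genes whose symbol in the array annotation reads Col, a number, a and a number. They came to 42 of the 18193 genes that at least 1 probe set represented alone, and 82 probe sets measured them. Each chain was read from 1 probe set, the one of highest mean over the 10 arrays. The study asked how lovastatin (Lov), a drug that blocks HMG-CoA reductase and thereby cholesterol synthesis, changes spontaneous mammary tumors of female FVB/N-Tg(MMTVneu) mice (Tg-neu). In these mice the MMTV promoter drives the neu proto-oncogene in the mammary epithelium, and both groups carried the transgene. From the first palpable lump, 5 mice per group received intraperitoneal Lov at 10 mg per kg body weight or the ethanol vehicle (Vhcl), 3 times a week for 6 weeks, and RNA of whole excised tumors was hybridized to Affymetrix mouse arrays. One label field of the Vhcl tumors calls them untreated, while their treatment label gives the vehicle. Values are log2 signals, so that a difference of 1 is a 2-fold change, and all differences are Lov minus Vhcl. The sources used here give no age, nor which mouse each tumor came from, so the p-values measure the spread between these tumors.

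Collagens are helices of alpha chains that cells secrete and assemble outside the cell. The fibrillar types build the fibers of connective tissue, with types I and III as the main pair of stroma and type V inside the same fibrils. Type IV forms the meshwork of basement membranes under epithelium and around vessels. Most other types bind to fibrils or basement membranes, such as the beaded filaments of type VI, the fibril-associated collagens (FACIT) and the multiplexins XV and XVIII. In mammary tumors the fibrillar chains are known mainly as products of stromal fibroblasts.

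The 42 chains held 11 fibrillar chains, 6 type IV chains and 25 others. No array copied another, and the correlations between arrays lay between 0.969 and 0.99. The epithelial markers Epcam and Krt18 were high in every tumor, at 12.11 to 12.61 and 11.78 to 12.73. Skeletal muscle transcripts were high in Vhcl A54, Vhcl A59 and Lov A55, where Acta1 reached 10.44, 10.57 and 10.26 against 4.21 to 7.08 elsewhere. The mean signal of the 5 measured salivary gland markers was 4.31 to 11.68 in the Vhcl tumors and 3.52 to 5.96 in the Lov tumors, highest in Vhcl AB11. The part of these tissues in the collagen values was not tested, though some fits left these tumors out.

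No collagen chain passed an unadjusted p of 0.05 between Lov-treated and Vhcl tumors, in either direction (limma, 0 of 42 lower and 0 of 42 higher). By exact permutation tests 0 of 42 passed it as well. Over all 45037 probe sets tested, 5.28% passed it, 2.16% lower and 3.13% higher. With 1 probe set per gene the share was 6.24%, with 2.75% lower and 3.5% higher. No chain separated the groups without overlap, which 0.693% of the 18193 genes did, and after Benjamini-Hochberg adjustment over all probe sets no chain fell below 0.961 and no probe set of any gene below 0.369. The 40 other probe sets of the chains gave 0 calls at an unadjusted p of 0.05 either, the lowest limma p among them being that of a second Col4a5 probe set with an estimate of 0.20. Of the 27 chains with several probe sets, 12 had estimates of mixed sign.

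The differences ran both ways. Of the 42 chains, 23 had a negative and 18 a positive estimate and Col17a1 one of 0, and their median was -0.02, beside 0.00 over the 18193 genes. The estimates ranged from -0.66 for Col14a1 to 0.68 for Col9a2. For 31 chains the 95% confidence interval lay inside a 2-fold change in both directions, so a larger change was outside the interval. For the other 11 the interval reached past a 2-fold change. The 31 include all 13 chains whose mean signal lay under the median of all probe sets. Differences of dim probe sets can be compressed, so for these 13 the interval bounds the measured signal only. Over the 18193 genes, 94.4% had an interval inside 2-fold.

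**Figure D1:**
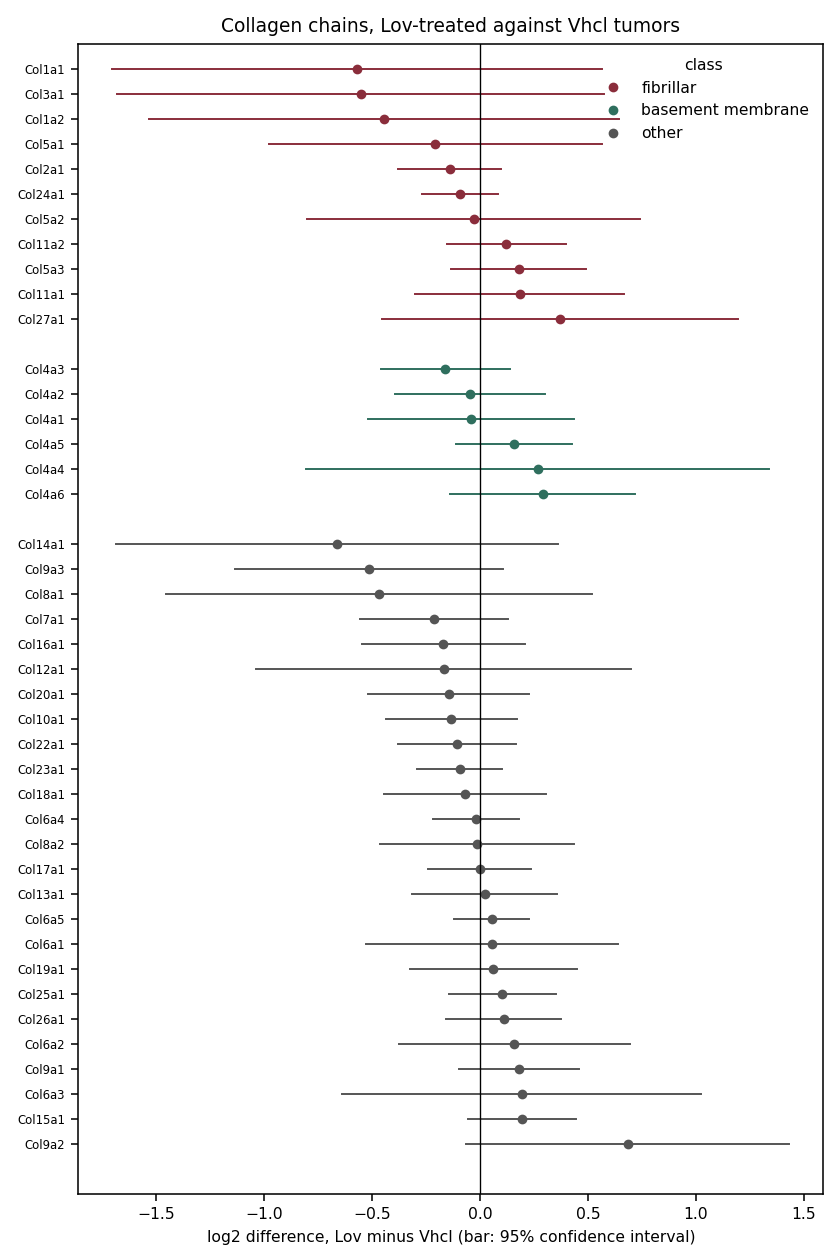
The log2 difference of each of the 42 collagen chains (x axis, Lov minus Vhcl, 5 tumors per group) with its 95% confidence interval, grouped into fibrillar, basement membrane (type IV) and other chains (y axis). Every interval includes 0, and the widest are those of Col1a1, Col3a1, Col1a2 and, outside the fibrillar class, Col4a4 and Col14a1.

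Type I and III chains had lower means in the Lov-treated tumors, by less than the spread between tumors. The log2 signal of Col1a1, a chain of type I, was 8.21 in Vhcl A45, 9.21 in A49, 8.90 in A54, 9.10 in A59 and 7.53 in AB11. In the Lov tumors it was 8.91 in A19, 9.65 in A48, 6.97 in A50, 7.38 in A55 and 7.19 in AB10. The highest and the lowest value both lay in the Lov group, and the Lov tumors fell apart into A19 and A48 at the height of the upper Vhcl tumors and 3 below every Vhcl tumor. The means were 8.59 ± 0.71 (SD, n = 5) in Vhcl and 8.02 ± 1.19 (SD, n = 5) in Lov tumors, a difference of -0.57 (SE 0.52, 95% interval -1.70 to 0.56, exact permutation p = 0.373). Without Lov A48 the difference was -0.98 and passed limma's unadjusted threshold of 0.05, and without Lov A50 it was -0.31. A second probe set of Col1a1 gave -0.16.

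Col1a2, the partner chain of Col1a1 in type I, followed the same tumors. It stood at 9.20, 10.13, 9.97, 10.22 and 8.73 in Vhcl A45, A49, A54, A59 and AB11. In Lov A19, A48, A50, A55 and AB10 it stood at 10.23, 10.50, 7.77, 9.04 and 8.49. Again Lov A48 was highest and Lov A50 lowest of the 10 tumors, and the difference was -0.44 (SE 0.50, interval -1.53 to 0.64, exact permutation p = 0.500). Its second probe set gave -0.52. Col3a1, the type III chain, was 9.45, 10.06, 9.95, 10.66 and 8.86 in the same order of Vhcl tumors. In the Lov tumors it was 10.00, 10.68, 7.52, 9.16 and 8.86, with the same tumors at either end and a difference of -0.55 (SE 0.52, interval -1.68 to 0.58, exact permutation p = 0.421). Without Lov A50 the differences of Col1a2 and Col3a1 were -0.085 and -0.12.

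The promoter of Col1a2 is shown because this chain had the highest Pearson correlation with Col1a1 of the pairs described further on (the promoter of Col1a1 itself was not used here). RefSeq places the window, 250 bases before to 50 after the start, at chr6:4505368-4505667 on the plus strand of GRCm38.p6. Capitals mark CCAAT, the motif of the CCAAT-binding factors, and GGGCGG, the GC box, each on either strand.
Col1a2 promoter: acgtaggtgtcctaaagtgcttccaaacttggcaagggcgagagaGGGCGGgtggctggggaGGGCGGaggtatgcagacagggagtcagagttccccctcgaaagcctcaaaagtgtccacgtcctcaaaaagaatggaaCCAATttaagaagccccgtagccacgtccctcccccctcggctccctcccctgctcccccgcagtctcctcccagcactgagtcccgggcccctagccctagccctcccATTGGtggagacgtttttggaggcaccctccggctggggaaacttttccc
The window held 2 copies of each motif and none of TATAAA, the TATA box. The first motif, CCAAT, was found in 36.1% of the 36 windows of the collagen chains, which stood for 33 of the 42 genes, and in 37.4% of all 32851 windows of the same length. GGGCGG was found in 61.1% of the collagen windows and in 35.7% of all windows. These are matches of letters, without data here on what binds them.

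The remaining fibrillar chains were split. Col5a1 and Col5a2, the main chains of type V, had differences of -0.21 (SE 0.35) and -0.03 (SE 0.35). Col5a3 had a difference of 0.18 (SE 0.14, exact permutation p = 0.278), and Col27a1, named here for the largest positive value of its class, one of 0.37 (SE 0.38). Col11a1, a chain of the cartilage type XI, ranged from 9.56 to 10.51 over the tumors, with a difference of 0.18 (SE 0.22). Col2a1, the main fibrillar chain of cartilage, ranged only from 5.00 to 5.47 and Col24a1 from 2.46 to 2.74. Their differences were -0.14 (SE 0.11) and -0.09 (SE 0.08). Over the 11 fibrillar chains 7 were negative and 4 positive, none passed the test, and the median was -0.09.

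**Figure D2:**
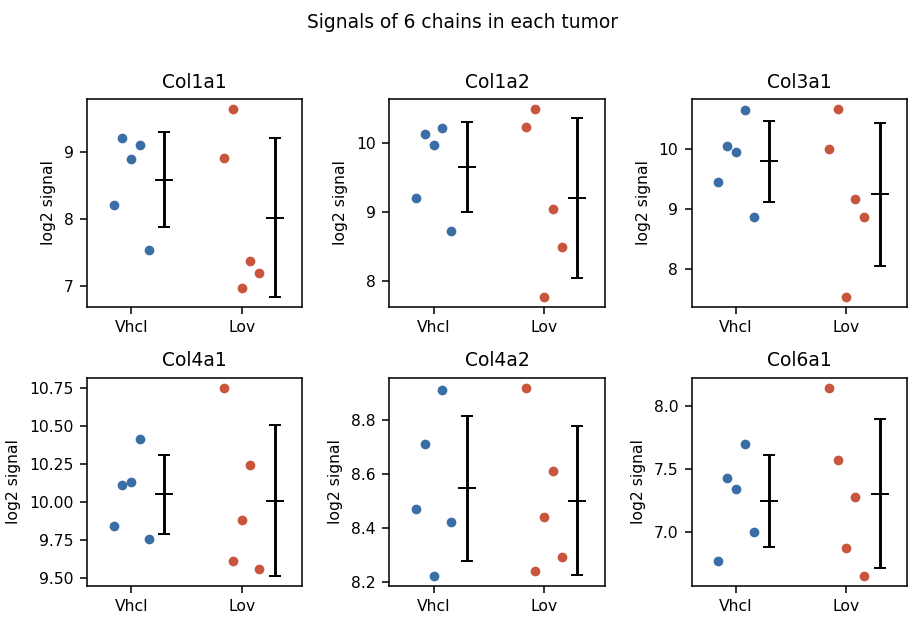
Log2 signal (y axis) of Col1a1, Col1a2, Col3a1, Col4a1, Col4a2 and Col6a1 in each tumor, with Vhcl and Lov tumors on the x axis (points, 5 per group) and the mean with its SD beside them. The Lov points of Col1a1, Col1a2 and Col3a1 reach above and below the Vhcl points, and those of Col4a1, Col4a2 and Col6a1 overlap them with nearly equal means.

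The chains of the common type IV network, Col4a1 and Col4a2, had nearly the same mean in both groups. Col4a1 was 9.84, 10.11, 10.13, 10.41 and 9.76 in Vhcl A45, A49, A54, A59 and AB11, and 10.75, 9.61, 9.88, 10.24 and 9.56 in Lov A19, A48, A50, A55 and AB10. Col4a2 was 8.47, 8.71, 8.22, 8.91 and 8.42 in the Vhcl tumors, and 8.92, 8.24, 8.44, 8.61 and 8.29 in the Lov tumors. Lov A19 was highest for both chains, and Lov A48, which was at the top for type I, was the second lowest for both. The differences were -0.04 (SE 0.22, interval -0.52 to 0.44) and -0.05 (SE 0.16, interval -0.39 to 0.30).

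The genes of these 2 chains lie head to head, and their promoter windows are shown because the chains varied together over the tumors. RefSeq puts the annotated starts 21 bases apart on GRCm38.p6. The Col4a1 window is chr8:11312777-11313076 on the minus strand and the Col4a2 window chr8:11312555-11312854 on the plus strand. The 78 bases that both windows share are in capitals, each printed 5′ to 3′ on its own strand.
Col4a1 promoter: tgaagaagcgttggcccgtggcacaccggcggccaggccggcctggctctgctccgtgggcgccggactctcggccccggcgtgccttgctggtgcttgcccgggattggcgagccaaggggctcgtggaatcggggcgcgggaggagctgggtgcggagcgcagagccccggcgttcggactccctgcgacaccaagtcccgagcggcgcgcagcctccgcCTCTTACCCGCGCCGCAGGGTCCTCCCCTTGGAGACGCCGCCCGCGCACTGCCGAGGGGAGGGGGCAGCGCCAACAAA
Col4a2 promoter: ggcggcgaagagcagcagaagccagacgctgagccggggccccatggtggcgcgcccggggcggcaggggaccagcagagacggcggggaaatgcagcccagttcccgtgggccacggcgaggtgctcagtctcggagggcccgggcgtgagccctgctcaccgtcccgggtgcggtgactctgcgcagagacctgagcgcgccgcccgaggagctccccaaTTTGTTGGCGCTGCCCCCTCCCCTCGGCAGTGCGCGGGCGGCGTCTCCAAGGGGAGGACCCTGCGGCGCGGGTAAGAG
Either window held 1 CCAAT counting both strands, with 1 GGGCGG for Col4a1 and 3 for Col4a2, and no TATAAA.

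The minor type IV chains ranged from -0.16 to 0.29. Col4a6 was 7.01, 7.77, 7.37, 7.09 and 7.30 in the Vhcl tumors and 6.97, 7.89, 7.87, 7.80 and 7.46 in the Lov tumors. Lov A19 was its lowest tumor, the reverse of its place for Col4a1, and the other Lov tumors were at or above 7.46. The difference was 0.29 (SE 0.20, interval -0.14 to 0.72, exact permutation p = 0.214), and without Lov A19 it was 0.45, past limma's unadjusted threshold. Col4a5, its head-to-head neighbor on the X chromosome, had a difference of 0.16 (SE 0.12, exact permutation p = 0.246). Col4a3 stayed at 3.08 to 3.85 with a difference of -0.16 (SE 0.14). Over the 6 type IV chains 3 were negative and 3 positive, none passed the test, and the median was 0.06.

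Type VI, whose beaded filaments lie between fibrils and basement membranes, had no chain past the test. Col6a1 was 6.77, 7.43, 7.34, 7.70 and 7.0 in the Vhcl tumors and 8.15, 7.57, 6.87, 7.28 and 6.65 in the Lov tumors. The Lov tumors held both extremes, Lov A19 at the top and Lov AB10 at the bottom, with a difference of 0.06 (SE 0.27). Col6a2 had a difference of 0.16 (SE 0.24) and was also highest in Lov A19, at 9.27. Without Lov A19 the differences of Col6a1 and Col6a2 became -0.16 and -0.06.

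The multiplexins are basement membrane proteoglycans, and the end of Col18a1 is cut off as endostatin, an inhibitor of vessel growth. Col15a1 was 6.17, 6.39, 6.68, 6.45 and 6.39 in the Vhcl tumors and 6.70, 6.61, 6.73, 6.68 and 6.33 in the Lov tumors. All but Lov AB10 of the Lov tumors lay above 4 of the 5 Vhcl tumors, and the difference was 0.19 (SE 0.11, interval -0.06 to 0.45, exact permutation p = 0.151). It was 0.26 without Lov AB10 and 0.26 without Vhcl A54, both past limma's unadjusted threshold. Col18a1 had a difference of -0.07 (SE 0.17).

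Of the collagens Col9a2 and Col9a3, chains of type IX, had the lowest limma p-values, with estimates of opposite sign. Type IX is a FACIT collagen known from the surface of cartilage fibrils, a molecule of Col9a1, Col9a2 and Col9a3. Col9a2 was 6.23, 6.29, 8.06, 7.23 and 7.96 in Vhcl A45, A49, A54, A59 and AB11, and 7.60, 7.91, 7.87, 8.15 and 7.66 in Lov A19, A48, A50, A55 and AB10. The Lov tumors lay close together, at 7.84 ± 0.22 (SD, n = 5), beside 7.15 ± 0.88 (SD, n = 5) in the Vhcl tumors. Vhcl A54 and AB11 lay among the Lov values, and the other Vhcl tumors below them. The difference was 0.68 (SE 0.34, interval -0.07 to 1.43, limma p = 0.0700, exact permutation p = 0.167).

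Col9a3 had an estimate of the opposite sign. It was 8.62, 8.67, 7.99, 8.95 and 7.41 in the Vhcl tumors and 8.40, 7.81, 7.88, 7.72 and 7.26 in the Lov tumors. All Lov tumors but A19 lay below every Vhcl tumor but AB11. The difference was -0.51 (SE 0.28, interval -1.14 to 0.11, limma p = 0.0970, exact permutation p = 0.167). A second probe set of Col9a3 gave -0.44.

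Col9a1 had a narrow range. It was 12.58, 12.32, 12.62, 12.88 and 12.50 in the Vhcl tumors and 12.42, 12.87, 12.91, 12.83 and 12.78 in the Lov tumors. All Lov tumors but A19 lay above 4 of the 5 Vhcl tumors, and the difference was 0.18 (SE 0.13, exact permutation p = 0.190). A second probe set of Col9a1 gave 0.36. Calls on single type IX chains depended on which tumors were in the fit. Col9a2 passed limma's unadjusted threshold without Vhcl A54, at 0.91, or without Vhcl AB11, at 0.89. Col9a3 passed it without Lov A19, at -0.66, or Vhcl AB11, at -0.74, and Col9a1 without Lov A19, at 0.27.

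The 4 tumors with the highest muscle or salivary signals, Vhcl A54, A59 and AB11 and Lov A55, held the upper Vhcl values of Col9a2. Vhcl A45 and A49, the Vhcl tumors left, were its lowest, at 6.23 and 6.29. Leaving the 4 out therefore had to widen the Col9a2 difference, and the fit cannot show what part these tissues had. Without the 4 tumors, a choice made after seeing the data that left 2 Vhcl and 4 Lov tumors, the Col9a2 difference was 1.50 (limma, adjusted p = 0.0514) and that of Col9a3 -0.81 (limma, adjusted p = 0.535). In that fit 4.44% of all genes passed the unadjusted threshold as lower and 4.52% as higher.

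Neither Col9a2 nor Col9a3 passed the test, so the signs of their estimates are not settled, and the part of cartilage tissue in them was not tested. Of the 6 cartilage markers none passed the test, and their median difference was 0.04. Of these markers 3 had a mean under the median of all probe sets, so this median difference cannot show whether cartilage tissue differed. Comp, which binds type IX, ranged from 7.98 in Vhcl A49 to 11.43 in Vhcl A45, with a difference of 0.28 (SE 0.52). Cnmd, the cartilage protein chondromodulin, ranged from 5.84 to 8.95, with a difference of -0.71 (SE 0.46, exact permutation p = 0.230). Acan and Hapln1, which define cartilage matrix, ranged only from 5.26 to 5.63 and from 3.06 to 3.41 over the tumors, beside a median of 5.02 for the means of all probe sets.

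**Figure D3:**
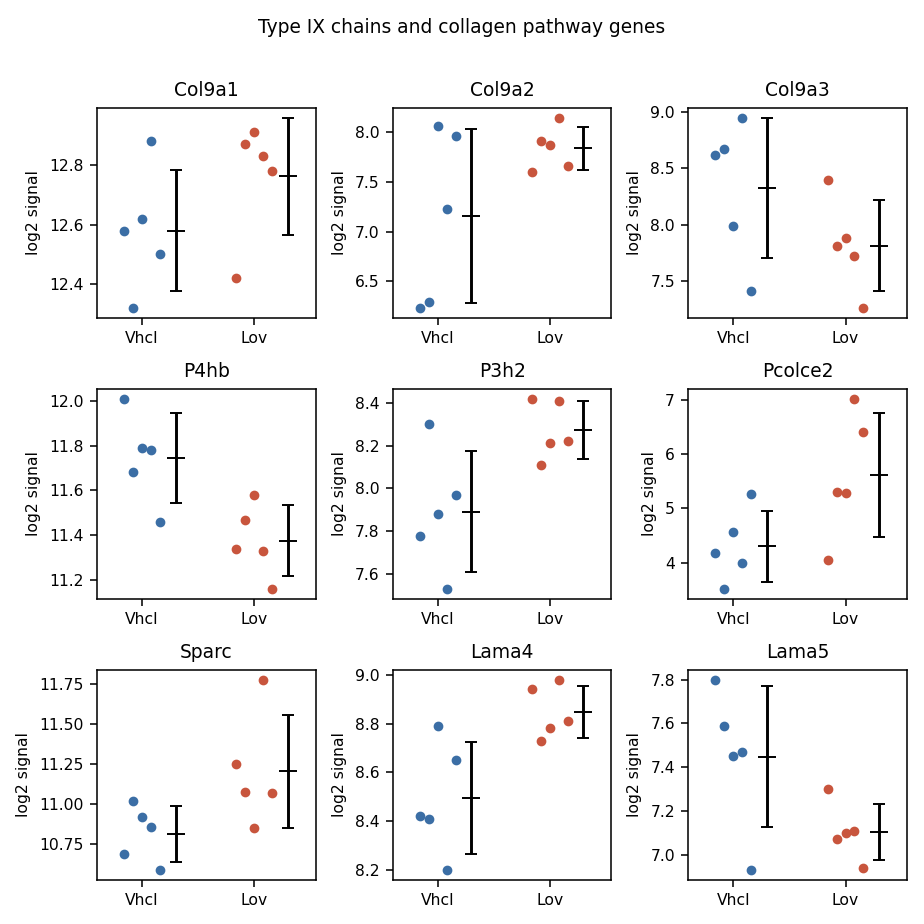
Log2 signal (y axis, a separate scale in each panel) of the type IX chains and of 6 genes of collagen handling and basement membranes in Vhcl and Lov tumors (x axis, points, 5 per group), with the mean and its SD beside them. Col9a2 is spread in the Vhcl group from 6.23 to 8.06 and tight in the Lov group, and Col9a3 and P4hb have their lower mean in the Lov tumors.

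Of the other FACIT chains Col14a1, which binds fibrils and is named here for the lowest estimate of all chains, had a difference of -0.66 (SE 0.47, exact permutation p = 0.302), with Lov A50 lowest at 3.97. Its other probe sets gave -0.17 and 0.13. Over the 9 FACIT chains 6 estimates were negative and 3 positive. The 3 short-chain network collagens all had negative estimates, down to -0.47 (SE 0.45) for Col8a1, a chain of vessel walls that was again lowest in Lov A50, at 5.24. The other Col8a1 probe sets gave -0.38 and -0.08. The 4 transmembrane chains stayed between -0.09 and 0.10, and Col7a1, the anchoring fibril chain, had -0.21 (SE 0.16). Over all 25 other chains the median was -0.01. The probe sets of 13 of the 42 chains had means under the median of all probe sets, and detection calls were not used here.

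Several fibrillar chains were widely spread between tumors of 1 group. The median SD within groups was 0.66 for the fibrillar chains, 0.31 for type IV and 0.30 for the others, against 0.22 over the 18193 genes. Within the fibrillar class this SD ran from 0.07 for Col24a1 to 0.98 for Col1a1. The spread was not particular to collagens. The median SD was 0.72 for the proteoglycans and organizers of fibrils, 0.49 for fibroblast markers and 0.46 for genes of processing and cross-linking. Of the 11 fibrillar chains 6 were lowest in Lov A50, and 7 were highest in Lov A48 or Lov A19. Col11a1 ran the other way in Lov A50, at 10.34, and in Lov A19, at 9.62, against its mean of 10.10. Averaged over the fibrillar chains, each centered on its own mean, the tumors stood at -0.12 in Vhcl A45, 0.11 in A49, 0.17 in A54, 0.50 in A59 and -0.38 in AB11. The same mean was 0.43 in Lov A19, 0.43 in A48, -0.72 in A50, -0.13 in A55 and -0.28 in AB10. The type IV mean was 0.10 in Lov A50, where the fibrillar mean was lowest. Its chains were split there, with Col4a1, Col4a2 and Col4a3 below their own means and Col4a4, Col4a5 and Col4a6 above. Col4a1 and Col4a2 stood at 9.88 and 8.44, against means of 10.03 and 8.52. The mean of Col4a4 was lowered by Vhcl A49, at 4.58 against 7.19 to 7.65 in the other Vhcl tumors.

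Fibroblast markers deviated to the same side as the fibrillar chains in 9 of the 10 tumors, with Lov A55 as the exception, at 0.17 against -0.13. Their mean deviation was highest in Lov A19 at 0.34, Lov A48 at 0.28 and Vhcl A59 at 0.27, and lowest in Lov A50 at -0.61. Single markers differed, as 3 of the 10 were lowest in Lov A50 and 3 were lowest in Vhcl A59. The median difference of the list was 0.03. Averaged over the 10 markers the log2 signal ranged from 5.78 to 6.29 in the Vhcl tumors and from 5.41 to 6.36 in the Lov tumors. Of the 10, 2 passed limma's unadjusted threshold, both higher, Fbln2 at 0.63 (SE 0.26) and Cd34 at 0.34 (SE 0.14), and Cd34 is also found on endothelium. Their exact permutation p-values were 0.0952 and 0.0397, and over all genes 3.5% were higher at that threshold.

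Fibroblast markers were not alone in this. Macrophage markers deviated to the side of the fibrillar chains in 10 of the 10 tumors and stood at -0.50 in Lov A50 and -0.62 in Lov AB10. Endothelial markers deviated to that side in 8 of the 10 tumors, and pericyte, adipocyte, luminal epithelial and salivary markers in 6 of the 10. Pericyte and adipocyte markers were also lowest in Lov A50, at -0.35 and -0.77. In RNA of whole tumors, fewer cells of a type and less RNA per cell cannot be told apart, and the part of these cells in the fibrillar values was not tested.

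Single markers of other cells passed limma's unadjusted threshold, beside 2.75% lower and 3.5% higher over all genes. Among 7 macrophage markers the receptor Csf1r was higher, at 0.43 (SE 0.15, exact permutation p = 0.0397), and Cd14 lower, at -1.38 (SE 0.49, exact permutation p = 0.0635). Of 5 T cell markers the receptor component Cd3g was higher, at 0.51 (SE 0.17, exact permutation p = 0.0397), and Fabp4, a fatty acid carrier among 4 adipocyte markers, lower, at -0.86 (SE 0.37, exact permutation p = 0.0952). Of 5 salivary markers Prol1 and Dcpp1 were lower, at -2.55 (SE 0.83, exact permutation p = 0.0476) and -3.18 (SE 1.03, exact permutation p = 0.0397).

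**Figure D4:**
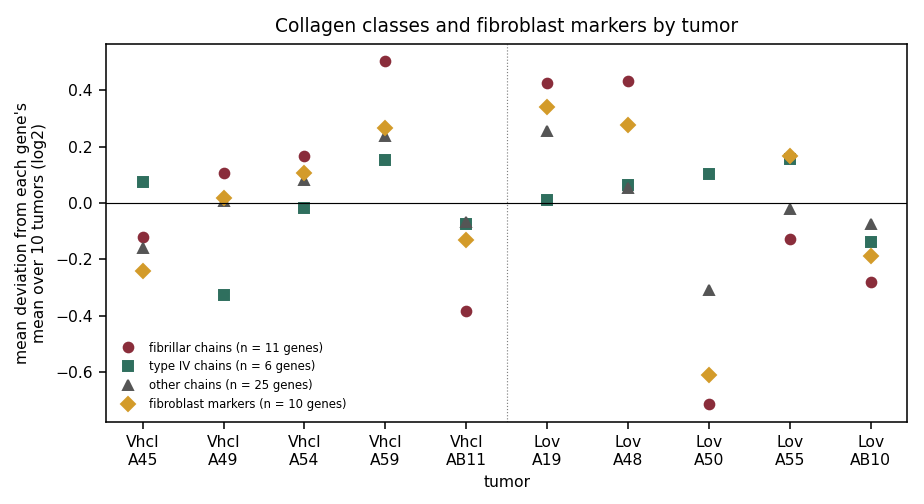
Mean deviation of the fibrillar, type IV and other collagen chains and of the fibroblast markers from each gene's own mean over the 10 tumors (y axis, log2) in each Vhcl and Lov tumor (x axis). The means of the fibrillar chains and of the fibroblast markers are both lowest in Lov A50, at -0.72 and -0.61. The mean of the type IV chains is 0.10 there, while Col4a1 and Col4a2 lie below their own means.

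Most partner chains of types I, III, V and VI varied together over the 10 tumors. Over 15 pairs, listed by known partnership with earlier results in view, Pearson's r passed an adjusted p of 0.05 for 9 and Spearman's rho for 6 (permutation tests, Benjamini-Hochberg over the 15). The 9 include Col9a2 with Col9a3, whose r was negative. How often other pairs of genes correlate over these tumors was not measured, so the counts have no background share beside them. Col1a1 and Col1a2 had r = 0.96 and rho = 0.94 (permutation p = 5e-05 and 0.0002, adjusted 0.00035 and 0.0015). Col1a1 and Col3a1 had r = 0.92 and rho = 0.97 (permutation p = 4e-05 and 5e-05, adjusted 0.00035 and 0.00075), and Col1a1 and Col5a1 had r = 0.90 and rho = 0.89 (permutation p = 0.00074 and 0.00111, adjusted 0.00222 and 0.00555). Without the 2 tumors farthest from the median of Col1a1, Lov A50 and Lov AB10, r was 0.96, 0.94 and 0.84 for these pairs, and the adjusted permutation p of rho was 0.0540, 0.0152 and 0.0675.

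The chains of types V and VI were paired in the same way. Col5a1 and Col5a2 had r = 0.93 and rho = 0.88 (permutation p = 7e-05 and 0.00165, adjusted 0.00035 and 0.00619). Col6a1 and Col6a2 had r = 0.89 and rho = 0.86 (permutation p = 0.00031 and 0.00315, adjusted 0.00116 and 0.00945). Col6a1 and Col6a3 had r = 0.83 and rho = 0.78 (permutation p = 0.00354 and 0.0104, adjusted 0.00759 and 0.0260), and without Lov A19 and Lov AB10 r was 0.72 with an adjusted p of 0.0896. Without 2 tumors each, r was 0.91 for the type V pair and 0.90 for Col6a1 with Col6a2.

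Col4a1 and Col4a2 had r = 0.83 and rho = 0.70 (permutation p = 0.00283 and 0.0302, adjusted 0.00708 and 0.0647). Without Lov A19 and Lov AB10 r was 0.72 and its adjusted p 0.0896, so this relation rested in part on those tumors. The other head-to-head type IV pairs, Col4a3 with Col4a4 and Col4a5 with Col4a6, had r = 0.0096 and 0.39 (permutation p = 0.979 and 0.280, adjusted 0.979 and 0.323), with rho at 0.21 and 0.55. Type I against type IV, Col1a1 with Col4a1, had r = 0.33 and rho = 0.22 (permutation p = 0.358 and 0.538, adjusted 0.384 and 0.553).

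Partners in a molecule did not always vary together. Col9a2 and Col9a3 had r = -0.70 and rho = -0.67 (permutation p = 0.0218 and 0.0392, adjusted 0.0363 and 0.0735). Without Vhcl A45 and Vhcl A49 r was -0.66 with an adjusted p of 0.130, and with the group means removed it was -0.61 with an adjusted p of 0.0954. Col9a1 and Col9a2 had r = 0.48, Col11a1 and Col11a2 r = 0.53, and Col5a1 and Col5a3 r = 0.48, none past an adjusted p of 0.05. Col8a1 and Col8a2 had r = 0.79 and rho = 0.64 (permutation p = 0.00604 and 0.0559, adjusted 0.0113 and 0.0932), and without Lov A50 and Vhcl A59 r was 0.59 with an adjusted p of 0.164. With the group means removed, 8 of the 15 pairs passed.

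**Figure D5:**
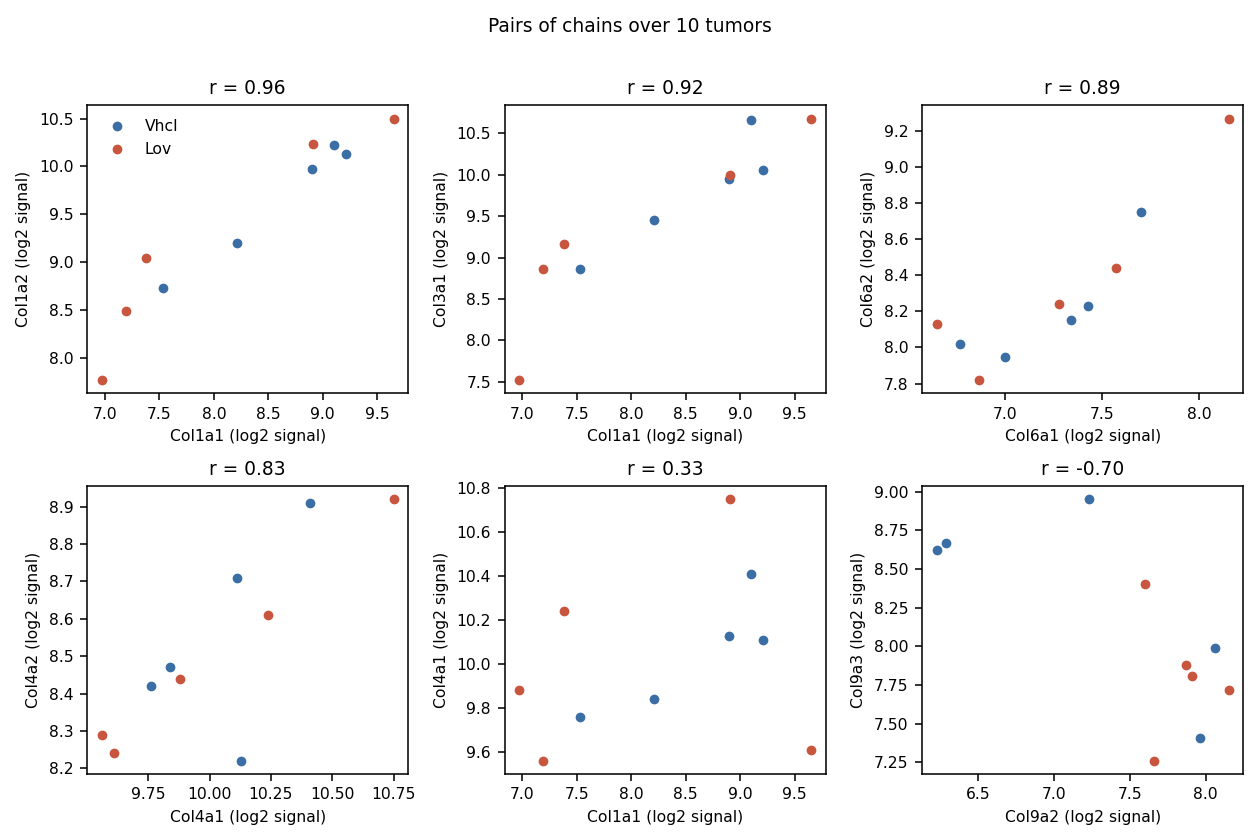
Log2 signals of 6 pairs of chains over the 10 tumors, 1 chain on each axis, with Vhcl and Lov tumors as separate colors and Pearson's r above each panel. Col1a1 rises with Col1a2 and Col3a1 over the tumors of both groups, scatters against Col4a1, and Col9a3 falls as Col9a2 rises.

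The genes that modify, process and bind collagen were listed in 5 sets, 65 genes in all, of which 3 were lower and 5 higher at the unadjusted threshold of 0.05, beside 2.75% and 3.5% of all genes. None passed adjustment over all probe sets, the lowest adjusted p being 0.919. Among 19 procollagen modifying enzymes and chaperones, 2 were lower and 1 higher, and the median difference was 0.05. P4hb, the disulfide isomerase subunit of the prolyl hydroxylase that stabilizes the helix, was 12.01, 11.68, 11.79, 11.78 and 11.46 in the Vhcl tumors and 11.34, 11.47, 11.58, 11.33 and 11.16 in the Lov tumors. Of the Lov tumors 2 lay in the Vhcl range and 3 below it, and the difference was -0.37 (SE 0.12, limma's p = 0.00915, exact permutation p = 0.0238).

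P3h2, a prolyl hydroxylase of type IV collagen, was 7.78, 8.30, 7.88, 7.53 and 7.97 in the Vhcl tumors and 8.42, 8.11, 8.21, 8.41 and 8.22 in the Lov tumors, a difference of 0.38 (SE 0.14, limma's p = 0.0160, exact permutation p = 0.0317). All Lov tumors lay above all Vhcl tumors but A49. P3h4, a partner of lysyl hydroxylation, had -0.26 (SE 0.12, limma's p = 0.0465, exact permutation p = 0.0476), and the cyclophilin Ppib 0.05 (SE 0.13). The calls of P4hb and P3h2 held with each tumor left out in turn, while that of P3h4 was lost in 7 of 10 such fits. The call of P3h2 was also lost with an actin 3′ minus 5′ covariate, at 0.30, and without Vhcl A54, A59 and AB11 and Lov A55, at 0.20.

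Among 11 genes of processing and cross-linking, 0 were lower and 1 higher, with a median of -0.04. Pcolce2, an enhancer of procollagen cleavage, was 4.17, 3.51, 4.56, 3.99 and 5.27 in the Vhcl tumors and 4.05, 5.31, 5.28, 7.03 and 6.41 in the Lov tumors. All Lov tumors but A19 lay above every Vhcl tumor, and the difference was 1.32 (SE 0.50, limma's p = 0.0218, exact permutation p = 0.0635). The call was lost without Lov A55, Lov AB10 or Vhcl A49. The cross-linkers Loxl3 and Tgm2 had 0.43 (SE 0.35) and -0.11 (SE 0.15).

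The 11 proteoglycans and organizers of fibrils had the lowest median of the 5 sets, at -0.41, with 9 negative estimates, of which none passed the test. Lov A50 was the lowest tumor for 9 of the 11, and without it the median was 0.04. Bgn, the proteoglycan biglycan, had -0.10 (SE 0.35). Sparc, a collagen-binding protein of stroma and vessels, was the 1 gene past the test. It was 10.69, 11.02, 10.92, 10.86 and 10.59 in the Vhcl tumors and 11.25, 11.08, 10.85, 11.78 and 11.07 in the Lov tumors, so that all Lov tumors but A50 lay above the Vhcl tumors, and the difference was 0.39 (SE 0.16, limma's p = 0.0333, exact permutation p = 0.0476). That call was lost without Vhcl A45, Vhcl AB11, Lov A19 or Lov A55.

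Among 9 collagen receptors, 0 were lower and 1 higher, with a median of 0.02. Lair1, an inhibitory receptor of leukocytes that binds collagen, had 0.42 (SE 0.19, limma's p = 0.0475, exact permutation p = 0.0635), a call lost in 7 of 10 fits with 1 tumor left out. The integrin chain Itgb1 had 0.04 (SE 0.16) and the receptor kinase Ddr1 -0.19 (SE 0.10, limma's p = 0.0831, exact permutation p = 0.0476).

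Among 15 partners of type IV in basement membranes, 1 was lower and 1 higher, with a median of 0.08. Lama4, a laminin chain of vessel basement membranes, was 8.42, 8.41, 8.79, 8.20 and 8.65 in the Vhcl tumors and 8.94, 8.73, 8.78, 8.98 and 8.81 in the Lov tumors. The Lov tumors all lay at or above 8.73, where Vhcl A54 alone of the Vhcl tumors stood, and the difference was 0.35 (SE 0.12, limma's p = 0.0112, exact permutation p = 0.0238). It passed the threshold with each tumor left out in turn. Lama5, a laminin chain of epithelial and vessel basement membranes, was lower, at -0.34 (SE 0.15, limma's p = 0.0375, exact permutation p = 0.0794), a call lost in 8 of 10 such fits. Endothelial markers held no gene past the test among 7, with a median of 0.07, and pericyte markers none among 8, with a median of -0.06.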

How the data were processed

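RNA of 10 whole mammary tumors, 5 Vhcl and 5 Lov, was measured on 1 Affymetrix array each. Signals were deposited by the authors on a log2 scale, after RMA in the affy package (submitters' processing notes and the methods), whose version is not given in the sources used here. RMA corrects background, quantile-normalizes the arrays together and summarizes each probe set, which can compress differences of dim probe sets. The signals carry 2 decimals and were used unscaled. Arrays have no read depth, and their number limits the precision.

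The collagen chains, classes, pathway and marker lists were chosen with earlier results of these data known. Groups came from the sample labels. Of 45101 probe sets 64 controls were left out. Lov was compared with Vhcl by limma 3.58.1 in R 4.3.3 (linear model, empirical Bayes, prior degrees of freedom 3.61), 2-sided, with Benjamini-Hochberg adjustment over 45037 probe sets. A single gene symbol was given for 34945 of them, several for 932 and no symbol for 9160. The RefSeq gene table held 34741 of those with a single symbol. The fit was tested on simulated data. Exact permutation tests, 2-sided, used all 252 assignments of tumors, with a smallest possible p of 0.00794. Correlations used 100000 permutations.

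Chains were named if among the 3 of highest mean or the 3 of lowest p of their class, if past an unadjusted threshold of 0.05 or if listed (Col1a1, Col1a2, Col3a1, Col4a1, Col4a2, Col6a1, Col15a1, Col18a1), and paired chains for their correlation. List genes could be named if among the 2 of highest mean or past that threshold (in pathway lists the 5 of lowest p at most). Col5a1, Col5a2, Col6a3 and Col8a2 are named as pair members, and Col7a1, Col8a1, Col14a1, Col27a1, Acan and Hapln1 were named after their values were seen. Marker lists of luminal and myoepithelial cells, macrophages, T cells and adipocytes had medians of -0.20, 0.05, 0.03, 0.07 and -0.14. The skeletal muscle and salivary lists had medians of -1.17 and -2.49. Alternatives were another prior, array weights, a fit without moderation, median centering, quantile normalization, an actin 3′ minus 5′ covariate, tumors left out, averaging a gene's probe sets, a signal filter and other class borders.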

Additional observations from a re-analysis of the deposited data

Results flagged for a closer look

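In groups of 5 tumors, a value was set apart when its gap to the nearest other tumor was over 0.71 of the range of the group. Among the 42 chains this held for 5 of 84 groups, and chance sets about 1 in 20 groups apart. Col4a4, a minor type IV chain, was 4.58 in Vhcl A49 against 7.19 to 7.65 in the other Vhcl tumors. Col2a1 was 5.08 in Vhcl AB11 against 5.37 to 5.47. Col7a1 was 6.21 in Vhcl A45 against 5.43 to 5.59. Lov A19 was set apart for Col9a1, at 12.42 against 12.78 to 12.91, and for Col18a1, at 7.24 against 6.41 to 6.62.

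Among the list genes named or considered for naming this held for 3 of 78 groups. The muscle genes Acta1 and Tnnc2 were 10.26 and 9.68 in Lov A55, against 4.45 to 6.13 and 4.19 to 5.23 in the other Lov tumors. The salivary gene Dcpp1 was 6.38 in Lov A19 against 4.32 to 4.58.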

How the results depend on the processing

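The count of chains past limma's unadjusted threshold of 0.05 was 0 in each direction in the reported fit. With 1 tumor left out at a time it ranged from 0 to 1 lower and from 0 to 2 higher. Over all genes the share in these fits was 1.96% to 3.95% lower and 2.29% to 4.72% higher. 1 chain was lower (Col9a3) and 2 higher (Col4a6 and Col9a2) without Lov A19 and Vhcl AB11, beside 4.74% and 5.05% of all genes. Without Vhcl A54, A59 and AB11 and Lov A55, chosen after seeing the data, 1 was lower and 1 higher, beside 4.44% and 4.52%. The actin covariate, the 3′ minus 5′ signal of the actin control probe sets, was not equal between the groups. It ran from 0.8 to 1.35 in Vhcl and from 0.67 to 1.07 in Lov tumors. With the actin covariate 3 chains were higher (Col27a1, Col5a3 and Col9a2), beside 3.41% of all genes. No collagen chain passed adjustment over all probe sets in any of these fits, the lowest adjusted p being 0.0514. The class medians moved by less than the SD of the class mean between tumors of a group in every alternative run. Those SDs, 0.42 for fibrillar, 0.15 for type IV and 0.18 for other chains, exceed the medians themselves, so the signs are not settled. With 1 tumor left out the fibrillar median ranged from -0.17 to 0.03, that of type IV from -0.02 to 0.12 and that of the others from -0.10 to 0.03. With the actin covariate the 3 medians were 0.04, 0.10 and 0.08. The pathway genes, 3 lower and 5 higher, became 1 lower with array weights, 1 lower and 2 higher in the fit without moderation, and 8 lower without Lov A19 and Vhcl AB11. Over all genes the shares were 2.87% lower, 2.23% lower and 2.75% higher, and 4.74% lower. With the actin covariate, the mean of all probe sets and the signal filter 3 pathway genes were higher, beside 3.41%, 3.52% and 3.91% of all genes. With 1 tumor left out the pathway genes ranged from 1 to 5 lower and from 2 to 5 higher. The median of the basement membrane partners was -0.06 with the signal filter, which keeps fewer of them. Without the 2 farthest tumors of each pair, correlated pairs numbered 5 of 15 by Pearson's r (9 with all tumors) and 1 by Spearman's rho (6 with all tumors). 5 estimates near 0 changed sign. With the actin covariate Col18a1, Col4a1 and Col4a2 were 0.11, 0.073 and 0.0018, and Col18a1 was 0.20 without the 4 tumors. Without Lov A19 and Vhcl AB11, Col6a1 and Col6a2 were -0.22 and -0.13. With 1 tumor left out Col18a1 ranged from -0.21 to 0.01, Col4a1 from -0.23 to 0.07, Col4a2 from -0.15 to 0.045, Col6a1 from -0.16 to 0.22 and Col6a2 from -0.0625 to 0.30. The cause was not tested. The groups share no replicate numbers, so no paired analysis was possible. Dim probe sets, and 5 tumors per group, limit what could be detected.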
